A study of Mus musculus with 12 samples.

Results

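The genes described here encode 10 receptors by which phagocytes sense extracellular nucleotides, adenosine, acid and metabolites. They are the proton sensors Gpr65 and Gpr132, the metabolite and lipid receptors Gpr84, Sucnr1 and Gpr183, the nucleotide receptors P2ry6, P2rx4 and P2rx7, and the adenosine receptors Adora2a and Adora3. The genes were picked by symbol, and all 10 were found among the 46078 genes of the deposited count table. Of the 15866 genes with enough counts to be tested, 9 were of this set, and Sucnr1 was the member that did not pass the filter on low counts.

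The tissue was ventrolateral white matter of the spinal cord, cut from sections by laser capture, from C57Bl6 mice without any transgene named in the labels. There were 12 RNA sequencing libraries, 3 in each of 4 groups, and each library pooled tissue of 5 mice. Young mice were 6 weeks old and middle-aged mice 8 months old by the study's methods, and the mice of each age were either naive or had been injected locally with lysolecithin, a detergent that strips myelin, 72 h earlier. The comparisons asked how the lesion at day 3 and the age of the mouse changed the receptors' RNA. The naive mice had no injection of vehicle, so the effect of lysolecithin and that of the injection itself cannot be told apart. The p-values measure the spread between pools, not between single mice. In bulk tissue, fewer cells of a type and less RNA per cell cannot be told apart.

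As background, dying cells and damaged myelin release ATP, UDP and other nucleotides, which phagocytes detect through P2X ion channels and P2Y G protein-coupled receptors. Ectoenzymes on the cell surface degrade these nucleotides stepwise to adenosine, which acts on a separate family of receptors and generally restrains inflammation. Microglia and infiltrating macrophages also read local acid, succinate, fatty acids and oxysterols through a set of orphan and metabolite receptors, several of which are raised when these cells are activated.

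The 12 libraries held 9834447 to 12807437 counts. A detection floor of 3 counts in a single library corresponded to 0.234 to 0.305 CPM, the unit of library-scaled counts used below for levels, after TMM scaling. Levels between genes are compared only as CPM per kb of exon. Markers of oligodendrocytes, the cells that define white matter, summed to 53010 to 102000 CPM in naive pools and fell in 6 of 6 genes after injury at both ages. Markers shared by all myeloid cells moved the other way. Their summed level was 106 to 141.3 CPM in young naive, 167 to 239 in middle-aged naive, 2162 to 2233 in young injured and 2243 to 2929 in middle-aged injured pools, and 10 of 10 were higher after injury at both ages. All 7 monocyte and macrophage markers were also higher after injury, with summed levels of 19.4 to 116 CPM in naive and 5898 to 8101 CPM in injured pools. Neutrophil markers summed to 4.71 to 13.1 CPM in naive and 63.7 to 89.1 CPM in injured pools, with 3 of 8 passing the filter and all 3 higher, while the neutrophil-defining Ly6g averaged no more than 0.139 CPM in any group. Lymphocyte markers summed to 0.272 to 0.880 CPM in naive and 4.37 to 8.72 CPM in injured pools, with 2 of 9 passing the filter and both higher, and the T-cell-defining Cd3e averaged at most 0.309 CPM. Of 5 dendritic cell markers, 3 were higher and 1 lower at both ages, and their sum stayed between 10.8 and 19.9 CPM in all 12 pools. Microglia, the resident phagocytes, gave a mixed picture: of 8 homeostatic microglia markers 4 were higher and 1 lower in young and 3 higher and 3 lower in middle-aged mice, although their summed level was 437 to 911 CPM in naive and 3240 to 4479 CPM in injured pools. Of 5 astrocyte markers, 4 were lower at both ages. Several markers had too few naive counts for the filter and passed it only through injured pools, so a call of them by injury could only be higher. Among lymphocyte and neutrophil markers these were Cd79b, Klrd1, S100a8 and Mmp8. Among monocyte and dendritic cell markers they were Ccr2, Ly6c2, Ms4a7, Chil3, Plac8, Xcr1, Clec9a and Cd209a. The part of these cell types in the receptor values below was not tested.

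The stretches of promoter that precede 4 of the genes are given here as a description. Gpr65 had the highest level of the set in the lesion, and P2rx7 and P2rx4 are neighbors on 1 chromosome with nearly equal levels. Adora3 holds both motifs marked below, as does Sucnr1, which is not printed. A link of these stretches to the RNA levels was not tested. Each is the 250 bases before the RefSeq start on GRCm38.p6, read 5′ to 3′ on the plus strand. They lie at chr12:98268385-98268634 for Gpr65, chr5:122643677-122643926 for P2rx7, chr5:122707294-122707543 for P2rx4 and chr3:105904171-105904420 for Adora3. Capitals mark a match, on either strand, to the PU.1 core GAGGAA, which reads TTCCTC where it lies on the minus strand, or to the AP-1 motif TGANTCA.
Gpr65: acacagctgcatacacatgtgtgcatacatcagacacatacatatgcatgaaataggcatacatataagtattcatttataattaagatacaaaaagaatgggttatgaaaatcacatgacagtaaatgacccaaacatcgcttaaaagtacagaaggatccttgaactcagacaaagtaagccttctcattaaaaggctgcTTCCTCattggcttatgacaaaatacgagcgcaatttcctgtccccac
P2rx7: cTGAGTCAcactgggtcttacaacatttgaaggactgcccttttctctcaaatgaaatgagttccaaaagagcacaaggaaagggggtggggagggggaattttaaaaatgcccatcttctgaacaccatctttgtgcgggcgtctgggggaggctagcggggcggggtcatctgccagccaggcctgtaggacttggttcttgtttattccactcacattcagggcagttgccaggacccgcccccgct
P2rx4: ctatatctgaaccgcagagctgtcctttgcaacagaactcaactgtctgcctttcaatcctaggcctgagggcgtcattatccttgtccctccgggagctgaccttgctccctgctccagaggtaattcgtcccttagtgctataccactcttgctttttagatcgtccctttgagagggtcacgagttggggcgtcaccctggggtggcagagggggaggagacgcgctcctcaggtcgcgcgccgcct
Adora3: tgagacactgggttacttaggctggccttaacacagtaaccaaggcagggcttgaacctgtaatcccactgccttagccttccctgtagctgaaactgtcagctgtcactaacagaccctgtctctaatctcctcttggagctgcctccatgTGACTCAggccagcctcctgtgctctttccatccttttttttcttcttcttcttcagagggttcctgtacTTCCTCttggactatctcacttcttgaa

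The RefSeq table held 9 such windows for 8 of the 10 genes, P2rx7 having 2 starts, and none for P2ry6 and Adora2a. The GAGGAA core was found in 3 of the 9 windows and in 23.3% of 32851 promoter windows of the same length. It began 48 bases before the start of Gpr65, 28 before that of Adora3 and 123 before that of Sucnr1. The TGANTCA motif was also found in 3 of 9 windows, against 6.75% of all windows, at 249 bases before P2rx7, 98 before Adora3 and 159 before Sucnr1. The cyclic AMP response element TGACGTCA, held by 1.55% of all windows, was in none of the 9. No match overlapped another. These matches describe letters and not binding.

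Day 3 injury raised 8 of the 9 tested receptors at either age, and lowered none. Across all genes tested, 28.3% were called higher by injury in the young and 29.2% in the middle-aged animals, by edgeR's quasi-likelihood test at an adjusted p under 0.05. DESeq2 also called 8 higher and none lower at each age, and at an unadjusted p under 0.05 the count was again 8, all higher. The members' median log2 fold change was 3.20 in young and 2.14 in middle-aged mice, where the medians over all genes tested were 0.000542 and -0.0322. The rise ran from 1.42 on the log2 scale for P2rx7 to 5.63 for Gpr65 in young mice, leaving out Gpr132, for which the naive pools held no count. Adora2a was the exception, and its log2 fold change did not pass the test at either age. Gpr132 and Gpr84, with 0 and at most 8 counts in a naive pool, passed the filter on low counts only through their injured pools. For these genes a call by injury could only be higher.

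**Figure D1:**
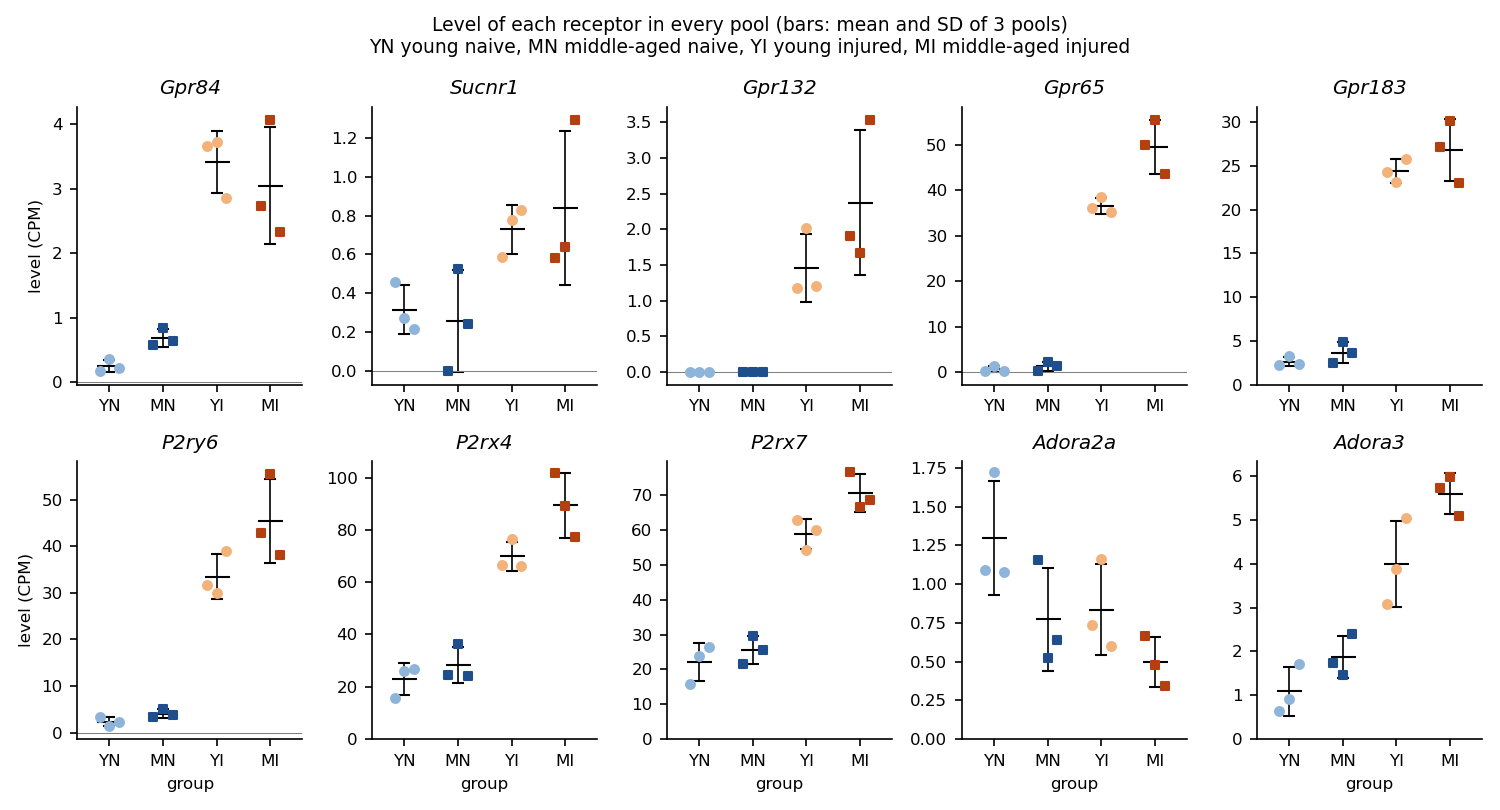
Level of each of the 10 receptor genes in CPM (vertical axes, each from 0 and each with its own scale) in the 12 pools, by group on the horizontal axis. Points are pools, and bars give the mean and SD of 3 pools; for Gpr65 the injured pools stand at 35.2 to 55.3 CPM against 0.273 to 2.31 CPM in naive pools, whereas for Adora2a the pools of both conditions overlap.

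The proton sensors are described first. Gpr65 (TDAG8, ENSMUSG00000021886, chr12:98268635-98276644, plus strand), a receptor that couples extracellular acid to cyclic AMP, was near the detection floor in part of the naive tissue. It stood at 0.273, 1.45 and 0.430 CPM in young naive pools 1 to 3 and at 0.288, 2.31 and 1.36 CPM in middle-aged naive pools 1 to 3. In the lesion it stood at 36.0, 38.6 and 35.2 CPM in the young pools and at 49.9, 55.3 and 43.5 CPM in the middle-aged pools. Every injured pool was thus far above every naive pool, while the naive pools differed among themselves from 3 to 22 counts. The log2 fold change was 5.63 ± 0.46 (SE; adjusted p = 1.64e-07) in young and 5.24 ± 0.43 (adjusted p = 1.38e-07) in middle-aged mice. Only 259 of the 15866 genes tested (1.63%) rose further than Gpr65 in the young animals and 291 (1.83%) in the middle-aged ones. The size leaned on single naive pools: with pools left out in turn it ran from 5.22 without young naive pool 1 to 6.68 without young naive pool 2 in young mice, and from 4.78 without middle-aged naive pool 1 to 5.83 without middle-aged naive pool 2 in middle-aged mice. An antisense gene not in the table, Gm47566, overlaps 24.7% of its exonic bases, and the sources used here do not state whether counting used strand.

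Gpr132 (ENSMUSG00000021298, chr12:112850873-112868228, minus strand), a relative of Gpr65 that responds to oxidized fatty acids and is only weakly proton-sensitive, was not detected in naive tissue. All 6 naive pools had 0 counts. The young injured pools had 16, 26 and 16 counts, or 1.17, 2.02 and 1.21 CPM, and the middle-aged injured pools had 23, 21 and 41 counts, or 1.91, 1.68 and 3.54 CPM. Set against a floor of 3 counts over the naive group, Gpr132 was at least 15.2-fold higher in young and at least 25.4-fold higher in middle-aged lesions (adjusted p = 0.000234 and 7.04e-05). The floor covers counting error only.

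Among the metabolite and lipid receptors, Gpr84 (ENSMUSG00000063234, chr15:103308235-103310612, minus strand), a receptor for medium-chain fatty acids found mainly on activated myeloid cells, was the member whose values differed most by age before injury. It had 2, 4 and 2 counts in young naive pools and 6, 8 and 8 counts in middle-aged naive pools, which gave 0.182, 0.363 and 0.215 CPM against 0.576, 0.839 and 0.640 CPM. After injury it stood at 3.67, 3.72 and 2.86 CPM in the young and at 2.74, 4.07 and 2.33 CPM in the middle-aged pools. The naive groups did not overlap, whereas the injured groups did. The lesion effect on Gpr84 was a log2 rise of 3.69 ± 0.45 among young animals (adjusted p = 8.77e-06) and of 2.14 ± 0.40 among middle-aged animals (adjusted p = 0.000337). An antisense gene not in the table, Gm49482, covers 39.5% of the exonic bases of Gpr84.

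Sucnr1 (ENSMUSG00000027762, chr3:60081869-60087566, plus strand), the receptor for succinate, remained at a few counts throughout. The counts were 5, 3 and 2 in young naive, 0, 5 and 3 in middle-aged naive, 8, 10 and 11 in young injured and 7, 8 and 15 in middle-aged injured pools. The injured pools did not overlap the naive pools of their age, but all of these values lay between 0 and 1.30 CPM. With no filter on low counts, edgeR gave a log2 fold change of 1.18 ± 0.82 (adjusted p = 0.321) in young and 1.71 ± 0.84 (adjusted p = 0.115) in middle-aged mice, and DESeq2 gave adjusted p = 0.263 and 0.0932. With 1 pool left out at a time the filter is looser, and Sucnr1 was tested in 10 of the 12 fits. In 1 of them, without middle-aged naive pool 2, it was called higher by injury in middle-aged mice, with 2.60 ± 0.85 (edgeR adjusted p = 0.0162), and in the other fits the adjusted p in middle-aged mice was 0.0688 or more. A change of Sucnr1 was thus not called with all 12 pools, and at these counts the call in middle-aged mice rested on that pool.

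Gpr183 (EBI2, ENSMUSG00000051212, chr14:121952551-121965195, minus strand), which guides immune cells along gradients of oxysterols, rose at both ages. Its pools ranged from 2.28 to 3.26 CPM in young naive, 2.50 to 4.93 in middle-aged naive, 23.1 to 25.8 in young lesion and 23.1 to 30.1 CPM in middle-aged lesion tissue. Its log2 rise amounted to 3.20 ± 0.25 at the younger age (adjusted p = 7.94e-08) and to 2.87 ± 0.24 at the older age (adjusted p = 1.48e-07). Naive and injured pools were widely separated, and the 2 injured groups overlapped.

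Of the nucleotide receptors, P2ry6 (ENSMUSG00000048779, chr7:100937630-100974649, minus strand), the UDP receptor that triggers phagocytosis by microglia, rose most. It stood at 3.28, 1.36 and 2.15 CPM in young naive, 3.26, 5.14 and 3.76 in middle-aged naive, 31.7, 29.8 and 38.9 in young lesion and 42.8, 55.5 and 38.1 CPM in middle-aged lesion pools. The highest naive pool, at 5.14 CPM, was well below the lowest injured pool, at 29.8 CPM. Injury raised P2ry6 by 3.88 ± 0.29 on the log2 scale in young (adjusted p = 5.14e-08) and by 3.49 ± 0.27 in middle-aged mice (adjusted p = 7.15e-08).

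The ATP-gated channels stood at nearly equal levels. P2rx7 (ENSMUSG00000029468, chr5:122643911-122691432), the low-affinity channel upstream of inflammasome activation, and P2rx4 (ENSMUSG00000029470, chr5:122707544-122729738), a channel of high ATP affinity found in part on lysosomes, lie on the same strand with 16112 bases between them. P2rx4 stood at 15.8, 25.9 and 26.8 CPM in young naive, 24.5, 36.3 and 24.2 in middle-aged naive, 66.7, 76.4 and 66.3 in young lesion and 101.9, 89.0 and 77.3 CPM in middle-aged lesion pools. P2rx7 stood at 15.9, 23.8 and 26.6 CPM in young naive, 21.6, 29.6 and 25.5 in middle-aged naive, 62.8, 54.3 and 59.9 in young lesion and 76.7, 66.6 and 68.6 CPM in middle-aged lesion pools. Both channels were already well above the floor in every naive pool, young naive pool 1 being the lowest for each. In log2 units P2rx4 rose by 1.61 ± 0.21 at the younger age (adjusted p = 1.38e-05) and by 1.66 ± 0.21 at the older age (adjusted p = 8.63e-06). P2rx7 rose by 1.42 ± 0.18 (adjusted p = 1.11e-05) and 1.47 ± 0.18 (adjusted p = 6.69e-06). These were among the smallest rises of the set, and 13.4% and 15.3% of all genes tested had a higher log2 fold change in young mice than P2rx4 and P2rx7.

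The difference of log2 CPM, P2rx7 minus P2rx4, was -0.04 ± 0.08 (SD, n = 3) in young naive, -0.13 ± 0.19 in middle-aged naive, -0.24 ± 0.22 in young lesion and -0.33 ± 0.14 in middle-aged lesion pools. These differences are not per length of exon, so they compare the groups, and their sign does not rank the channels. The ranges of naive and injured pools overlapped in young mice, where they ran from -0.13 to 0.02 and from -0.49 to -0.09, and also in middle-aged mice, where they ran from -0.29 to 0.07 and from -0.42 to -0.17. Of the exonic bases of P2rx7, 119 are shared with the microRNA gene Mir8115.

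Of the adenosine receptors, 1 of 2 rose. Adora3 (ENSMUSG00000000562, chr3:105870858-105908926, plus strand), which couples to inhibitory G proteins, stood at 0.638 to 1.72 CPM in young naive, 1.47 to 2.40 in middle-aged naive, 3.08 to 5.05 in young lesion and 5.09 to 5.99 CPM in middle-aged lesion pools. In log2 units it rose by 1.89 ± 0.38 at the younger age (adjusted p = 0.000746) and by 1.57 ± 0.36 at the older age (adjusted p = 0.00167). Adora3 shares 20.9% of its exonic bases, on the same strand, with Tmigd3. Adora2a (ENSMUSG00000020178, chr10:75316877-75334784, plus strand), which raises cyclic AMP and restrains leukocytes, stood at 1.08 to 1.72 CPM in young naive, 0.525 to 1.15 in middle-aged naive, 0.602 to 1.16 in young lesion and 0.345 to 0.664 CPM in middle-aged lesion pools. For Adora2a the naive and injured ranges overlapped at both ages, and the pools held 4 to 19 counts. Its log2 fold change was -0.64 ± 0.48 (adjusted p = 0.279) in young and -0.62 ± 0.53 (adjusted p = 0.328) in middle-aged mice.

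**Figure D2:**
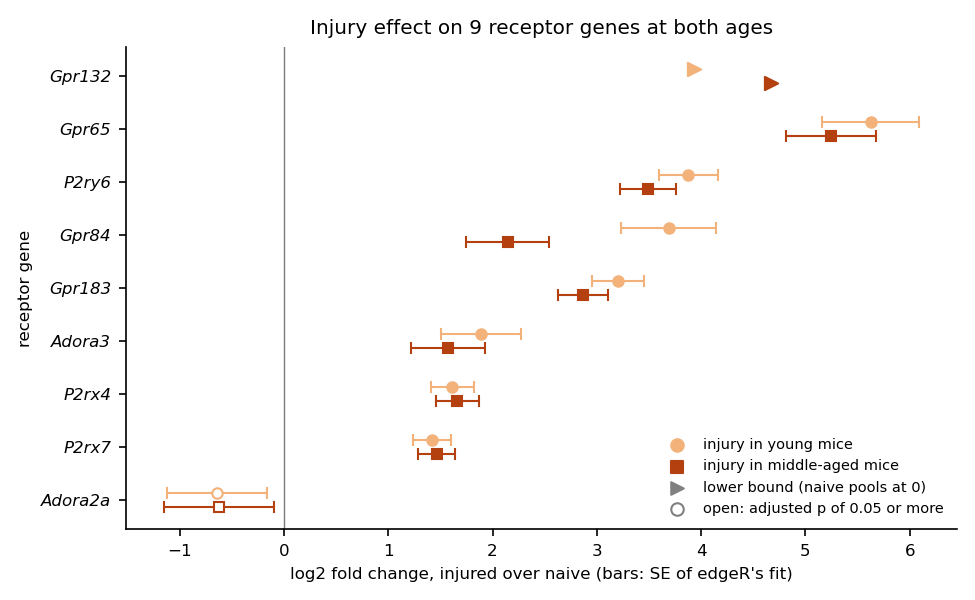
Log2 fold change of injured over naive pools (horizontal axis) for the 9 tested receptor genes (vertical axis), with SE bars from edgeR's fit, in young (light circles) and middle-aged mice (dark squares). Triangles are lower bounds for Gpr132, whose naive pools held 0 counts, and open symbols are values that did not pass the test; Gpr65 reaches 5.63 and 5.24, and Adora2a alone lies below 0.

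Per length of exon, the order of the receptors differed between naive tissue and the lesion. In young naive tissue P2rx7 led with 3.70 ± 0.92 CPM per kb (SD, n = 3), next to P2rx4 with 3.25 ± 0.87 CPM per kb. Their pools overlapped each other, and neither overlapped the next gene, Gpr183 with 0.913 ± 0.189 CPM per kb. The same channels led in middle-aged naive tissue, with 4.28 ± 0.67 and 4.04 ± 0.98 CPM per kb, ahead of P2ry6 with 1.41 ± 0.34 CPM per kb. From there to the ninth place every gene overlapped its neighbor at both ages, and Gpr132 came last with no count.

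In the lesion Gpr65 led at both ages, with 17.7 ± 0.85 CPM per kb in young and 24.0 ± 2.9 CPM per kb in middle-aged mice, and its pools did not overlap those of P2ry6, which came next with 11.6 ± 1.6 and 15.7 ± 3.1 CPM per kb. P2ry6, P2rx4 and P2rx7 overlapped their neighbors in that order, with P2rx4 at 9.94 ± 0.81 and 12.7 ± 1.8 and P2rx7 at 9.88 ± 0.73 and 11.8 ± 0.90 CPM per kb. Gpr183 followed without overlap, with 8.46 ± 0.47 and 9.27 ± 1.2 CPM per kb. A gap separated these 5 genes from the others, of which Gpr84 was the highest with 1.98 ± 0.28 and 1.77 ± 0.53 CPM per kb. Adora3 had 1.07 ± 0.26 and 1.503 ± 0.12, Gpr132 0.540 ± 0.176 and 0.875 ± 0.374, Sucnr1 0.445 ± 0.077 and 0.511 ± 0.242, and Adora2a 0.272 ± 0.096 and 0.162 ± 0.052 CPM per kb. In naive tissue Gpr65 had held rank 6 in young and rank 5 in middle-aged mice.

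**Figure D3:**
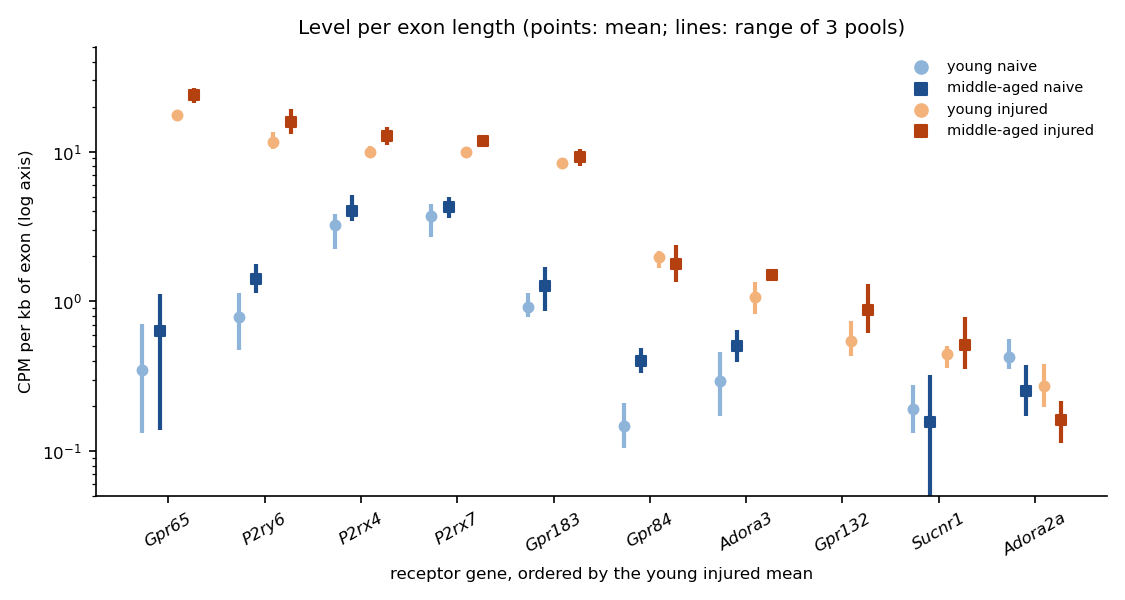
Level per kb of exon (vertical log axis, CPM per kb) of the 10 receptor genes in the 4 groups, with points at the mean and lines over the range of 3 pools; groups at 0 are not drawn and lines that reach 0 stop at the lower edge. P2rx7 and P2rx4 lead in naive tissue at 3.25 to 4.28 CPM per kb, and Gpr65 leads in the lesion at 17.7 and 24.0 CPM per kb.

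Since general myeloid RNA rose at the same time, each receptor was also taken relative to 10 pan-myeloid markers, as its log2 CPM minus the mean log2 CPM of the markers in the same pool. The marker mean rose by 4.30 in young and by 3.64 in middle-aged mice on the log2 scale. Gpr65 was the receptor with a higher relative level in injured than in naive pools at both ages. Its relative level was -3.69, -1.96 and -3.74 in young naive pools against -1.77, -1.79 and -1.91 in young injured pools. In middle-aged mice it was -4.40, -2.65 and -3.12 in naive against -1.80, -1.63 and -1.59 in injured pools. The ranges did not overlap, young naive pool 2 coming closest to the injured pools. The difference was 1.31 in young and 1.72 in middle-aged mice, each with an exact permutation p of 0.1, the smallest that 3 pools against 3 allow in this 2-sided test.

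The relative level of P2ry6 gave a difference of -0.44 in young mice (exact permutation p = 0.5) and -0.20 in middle-aged mice (exact permutation p = 0.2), and its naive and injured pools overlapped at both ages. The other receptors, Gpr132 apart, had lower relative levels in injured than in naive pools. Gpr183 differed by -1.15 in young and -0.79 in middle-aged mice, and Gpr84 by -1.20 and -1.76. P2rx4 differed by -2.65 in young and -1.97 in middle-aged mice, P2rx7 by -2.86 and -2.17, Adora3 by -2.50 and -2.12, Sucnr1 by -3.38 and -2.25 and Adora2a by -4.85 and -4.11. For each of these genes, Gpr183 to Adora2a, the naive and injured pools did not overlap at either age, with an exact permutation p of 0.1 each. Any gene whose log2 CPM rose by less than the marker mean, 4.30 in young and 3.64 in middle-aged mice, falls on this measure. The median log2 fold change over all genes tested was 0.000542 and -0.0322, so a fall does not set these receptors apart. The share of all genes that fell without overlap was not taken. The value of Gpr132 turned on the prior count added to its zeros: the difference in young mice was -1.08 with a prior of 2 counts and 0.75 with a prior of 0.5, and in middle-aged mice it was 0.18 with overlapping pools (exact permutation p = 0.9). Few naive counts make the size of the difference for Gpr84 and Sucnr1 depend on the prior as well. In young mice the log2 CPM of Gpr84 rose by 3.09, where edgeR's fit gave 3.69.

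**Figure D4:**
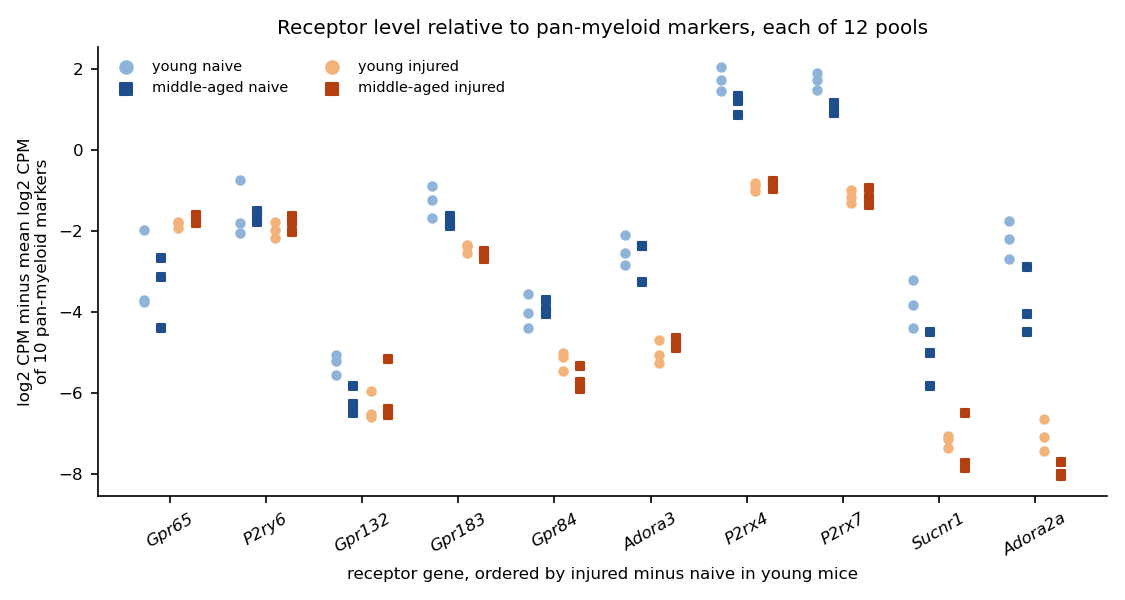
Log2 CPM of each receptor minus the mean log2 CPM of 10 pan-myeloid markers (vertical axis) in each of the 12 pools, by gene and group. Injured pools (orange and brown) of Gpr65 lie above the naive pools (blue) of their age, those of P2ry6 overlap them, and those of P2rx4 and P2rx7 lie below, at -1.36 to -0.76 against 0.87 to 2.05. Heights are not comparable between genes, since they are not per length.

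Age was then compared within each condition. In naive tissue 0 of 9 members were called by edgeR, where 3.8% of all genes tested were called in either direction. Gpr132, with 0 counts in every naive pool, could not be called. DESeq2 also called 0, where it called 6.8% of its tested genes. At an unadjusted p under 0.05 there were 2 members, and the share of all genes at that threshold was not taken. The log2 fold change, middle-aged over young, was positive for 7 of the 9, with a median of 0.47 beside 0.01 for all genes tested. The 2 genes were Gpr84, with 1.38 ± 0.51 (adjusted p = 0.161), and P2ry6, with 0.83 ± 0.30 (adjusted p = 0.157). Gpr84 was also the single member with every middle-aged naive pool above every young naive pool, a pattern that 7.77% of all genes tested showed. The values of Gpr65 (0.82 ± 0.59, adjusted p = 0.487) and Adora3 (0.80 ± 0.40, adjusted p = 0.303) were about as high as that of P2ry6. The pools of P2ry6, Gpr65 and Adora3 all overlapped between the ages. In the same naive tissue 7 of 10 pan-myeloid markers were called higher in middle-aged mice, with a median log2 fold change of 1.13, and the part of that in the receptor values was not tested.

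In the lesion 0 of 9 members were called by edgeR for age, where 1.15% of all genes tested were called. DESeq2 also called 0, where it called 2.89% of its tested genes. No member had an unadjusted p under 0.05, and the share of all genes at that threshold was not taken. Again 7 of 9 log2 fold changes were positive, with a median of 0.36 beside 0.002 for all genes tested. In 4 members, Gpr65, P2rx4, P2rx7 and Adora3, every middle-aged injured pool stood above every young injured pool, as it did in 11.1% of all genes tested. The log2 fold changes of these 4 were 0.44 ± 0.32 (adjusted p = 0.833), 0.36 ± 0.20 (adjusted p = 0.668), 0.26 ± 0.17 (adjusted p = 0.776) and 0.49 ± 0.34 (adjusted p = 0.801). When the fit used only the injured pools, Gpr65 passed the test with 0.43 (adjusted p = 0.0416), and in that fit 5.44% of all genes tested were called. The summed pan-myeloid markers were likewise higher in each middle-aged injured pool than in each young one, from 2243 CPM against up to 2233 CPM, although none of the 10 was called. Oligodendrocyte markers were lower in the middle-aged lesion, with 5 of 6 called, a median log2 fold change of -0.86 and summed levels of 7930 to 12450 CPM against 18250 to 20260 CPM. Their part in the receptor values was not tested.

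The injury effects themselves did not differ between the ages at the adjusted threshold for any of the 9 members, where 0.139% of all genes tested did. DESeq2 also called 0, where it called 1.72% of its tested genes. Gpr132 could not be called here, since its naive pools held 0 counts at both ages. The 1 member with an unadjusted p under 0.05 was Gpr84, for which the log2 effect of injury was lower by 1.54 in middle-aged mice, a difference of -1.54 ± 0.62 (adjusted p = 0.406). For P2rx4 and P2rx7 the difference was 0.05 ± 0.29 and 0.05 ± 0.25 (adjusted p = 0.984 and 0.977). For Gpr65 it was -0.39 ± 0.66, for Gpr183 -0.34 ± 0.33, for P2ry6 -0.39 ± 0.38, for Adora3 -0.32 ± 0.52 and for Adora2a 0.01. Differences of this size between ages could not be resolved with 3 pools a group.

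Other genes of the same pathways were followed as lists. Of these, P2rx1, P2ry2, Ada, Gpr35, Ch25h, Nlrp3 and Il1b passed the filter only through injured pools, so a call of them by injury could only be higher. Of 13 other purinergic receptors, 11 passed the filter, of which 3 were called higher and 5 lower by injury in young mice and 2 higher and 4 lower in middle-aged mice. Among all genes tested 26.3% were called lower in young and 29.3% in middle-aged mice, beside the shares called higher given above. The median log2 fold change was -0.38 in young and -0.24 in middle-aged mice. P2ry2, a receptor for ATP and UTP, was the highest of those called in young mice, with 2.94 ± 0.64 (adjusted p = 0.00137), and had 4.78 ± 0.68 in middle-aged mice (adjusted p = 2.94e-05). P2rx1 averaged 0.152 CPM in young naive and 0.953 CPM in young injured pools and was called higher. It was also called higher in middle-aged mice (edgeR adjusted p = 0.0193), where it had 0 counts in each naive pool and 3 to 6 in injured pools. P2ry12 and P2ry13 are ADP receptors of resting microglia. P2ry12 had 0.40 ± 0.18 (adjusted p = 0.0681) and -0.24 ± 0.18 (adjusted p = 0.264), and P2ry13 rose in young mice by 1.77 ± 0.35 (adjusted p = 0.000558) but had 0.34 ± 0.33 in middle-aged mice (adjusted p = 0.397). The difference between the ages for P2ry13 was -1.43 ± 0.47 (adjusted p = 0.282). The genes that fell at both ages were Adora1, by 1.26 and 1.41 on the log2 scale, Adora2b, by 1.24 and 1.92, P2rx5, by 2.23 and 1.87, and P2rx6, by 2.23 and 3.06. P2rx3 fell in young mice by 1.65 (adjusted p = 0.0490).

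Enzymes and transporters that set the supply of nucleotides and adenosine were called in both directions. Of 13 measured, 4 were called higher and 4 lower in young mice, and 5 higher and 4 lower in middle-aged mice. Over all genes tested, 28.3% were called higher and 26.3% lower in young mice, and 29.2% and 29.3% in middle-aged mice. Entpd1 (CD39), the ectoenzyme that degrades ATP and ADP on leukocytes and microglia, rose by 1.77 ± 0.14 at the younger age (adjusted p = 8.80e-08) and 1.85 ± 0.14 at the older age (adjusted p = 4.02e-08). Nt5e (CD73), which makes adenosine from AMP, had 0.80 ± 0.34 in young mice (adjusted p = 0.0596) and rose by 1.41 ± 0.34 in middle-aged mice (adjusted p = 0.00251), with a difference between ages of 0.62 ± 0.48 (adjusted p = 0.735). Ada, which deaminates adenosine, and the nucleoside transporters Slc29a1 and Slc29a3 rose at both ages, by 1.53, 1.51 and 1.07 in young and by 2.62, 1.98 and 1.96 in middle-aged mice. The other ectoenzymes Entpd2 and Entpd3 fell by 2.02 and 2.47 in young and by 2.15 and 2.54 in middle-aged mice, Enpp3 fell by 1.41 and 1.49, and Adk, which phosphorylates adenosine, fell by 0.85 and 0.70. The ATP-release channel gene Panx1 had 0.49 ± 0.34 (adjusted p = 0.237) and 0.46 ± 0.33 (adjusted p = 0.255).

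Of 12 other metabolite and proton receptors, 3 passed the filter and 2 of them rose at both ages. Among all genes tested 28.3% were called higher in young and 29.2% in middle-aged mice. Hcar2, the receptor for niacin and β-hydroxybutyrate, rose by 5.48 ± 0.35 in young and 4.32 ± 0.30 in middle-aged mice (adjusted p = 1.40e-08 and 2.45e-08). Gpr35 rose by 5.46 ± 0.35 and 4.85 ± 0.30 (adjusted p = 1.30e-08 and 7.93e-09). Hcar2 was also called higher in middle-aged than in young naive tissue, by 1.86 ± 0.41 (adjusted p = 0.0248). The lactate receptor Hcar1 and the fatty acid receptors Ffar1 to Ffar4 did not pass the filter, each averaging at most 0.276 CPM in the lesion.

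Among the 4 enzymes that make or degrade the oxysterol ligand of Gpr183, Ch25h, the cholesterol 25-hydroxylase that starts its synthesis, went from 0.121 CPM in young naive and 1.33 CPM in middle-aged naive to 36.9 and 35.1 CPM in injured pools and was called higher at both ages (adjusted p = 1.11e-07 and 7.65e-07). The young naive pools had 0 to 3 counts of Ch25h. Hsd3b7, which clears the ligand, rose by 1.05 ± 0.26 (adjusted p = 0.00359) and 1.17 ± 0.26 (adjusted p = 0.00141). Cyp27a1, a sterol 27-hydroxylase, fell by 2.14 and 2.43, and Cyp7b1, which adds the hydroxyl group at the 7-alpha position, had -0.47 ± 0.24 in young mice (adjusted p = 0.11) and fell by 0.84 in middle-aged mice (adjusted p = 0.00805).

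Of 7 genes of the inflammasome that P2rx7 activates, 5 were called higher and 1 lower at both ages. The shares called higher over all genes tested were 28.3% in young and 29.2% in middle-aged mice. The sensor gene Nlrp3 rose by 3.99 ± 0.50 at the younger age (adjusted p = 1.12e-05) and 2.48 ± 0.43 at the older age (adjusted p = 0.000166), the adaptor Pycard by 3.99 ± 0.36 and 3.80 ± 0.34, Casp1 by 4.15 ± 0.22 and 3.03 ± 0.19, and the pore-forming Gsdmd by 2.93 ± 0.56 and 2.79 ± 0.54. Il1b had 0 to 2 counts in every naive pool and averaged 1.59 CPM in young injured and 6.80 CPM in middle-aged injured pools, an age difference in the lesion of 2.09 ± 0.46 on the log2 scale (adjusted p = 0.0443). Il18 fell by 0.95 and 1.35 (adjusted p = 0.00351 and 0.000251), and Nek7 had 0.02 ± 0.11 (adjusted p = 0.887) and -0.13 ± 0.11 (adjusted p = 0.321).

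**Figure D5:**
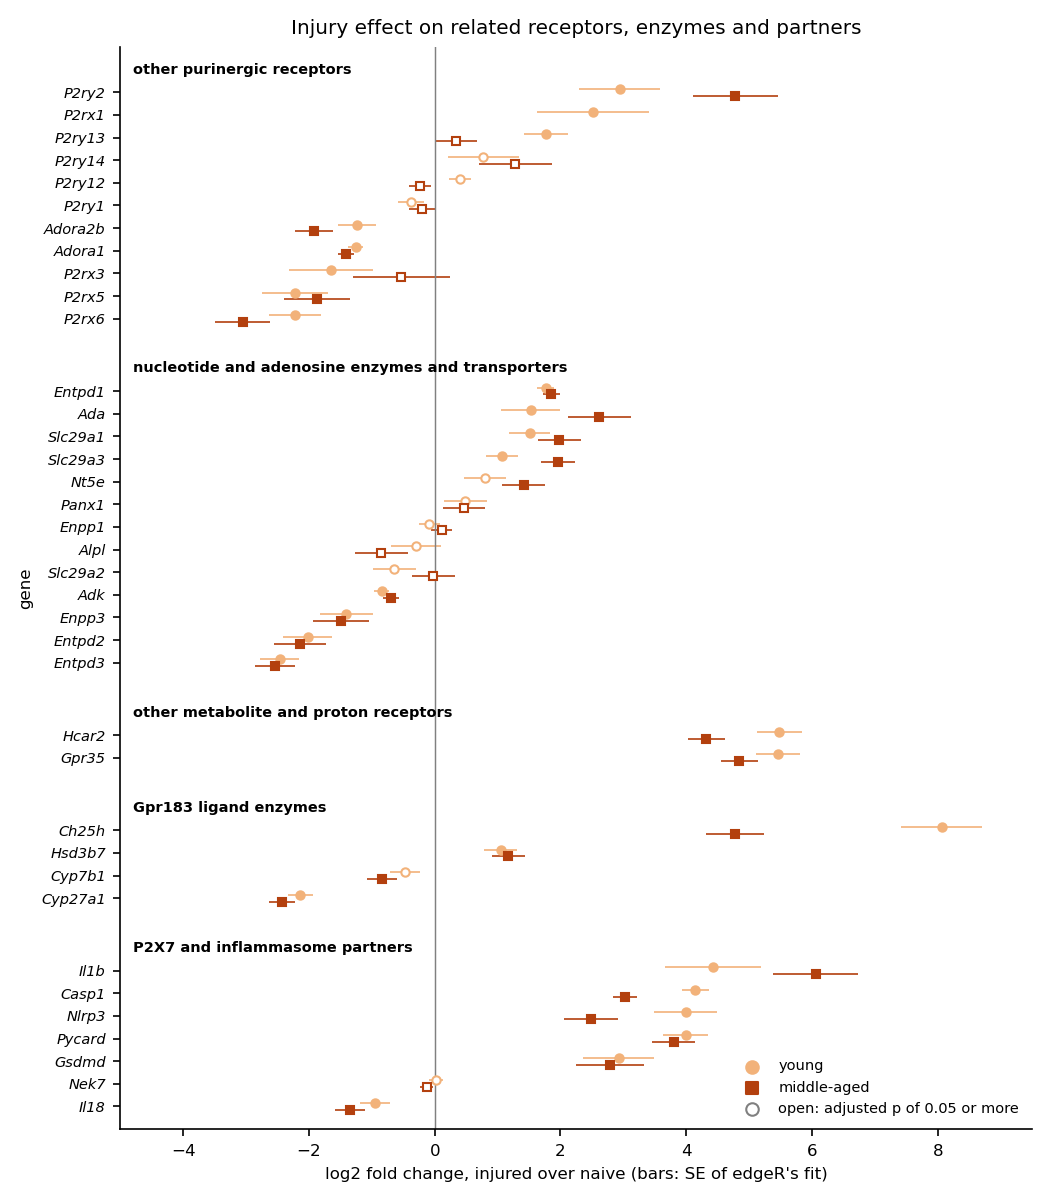
Log2 fold change of injured over naive pools (horizontal axis) with SE bars from edgeR's fit for tested genes of 5 lists (vertical axis), in young (light circles) and middle-aged mice (dark squares); open symbols did not pass the test. P2rx1 is not drawn for middle-aged mice, whose naive pools held 0 counts, and in young mice Hcar2 and Gpr35, at 5.48 and 5.46, lie farthest to the right among the receptors drawn.

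Finally, the genes whose log2 CPM followed each receptor most closely over the 12 pools were listed by Pearson's r, as a description. All of these pools share the split into naive and injured tissue, and for Gpr183 1300 genes had r over 0.95. Gpr65 was followed by Csf2rb2, a cytokine receptor chain (r = 0.996), Tnfaip2 (0.993) and Pon3 (0.992). Gpr132 was followed by Raet1e (0.994), Saa3 (0.993) and Sirpb1a (0.993), and Gpr84 by Cd302 (0.991), Itgb5 (0.987) and Slco2b1 (0.986). Gpr183 was nearest to Sh3bgrl3 (0.997), the lactate dehydrogenase gene Ldha (0.997) and Gm17134 (0.996), and P2ry6 to Tlk1 (0.995), the endosomal receptor gene Tlr13 (0.994) and Fyb (0.992). P2rx4 and P2rx7 had Mbd2 (0.993 and 0.996) and Nfe2l2 (0.991 and 0.993), which encodes the oxidative stress factor NRF2, in common. P2rx4 was also followed by Paox (0.991). Adora3 was nearest to Irak1 (0.979), Tpr (0.977) and Slfn8 (0.976), with 33 genes over 0.95. Adora2a was nearest to Polrmt (0.928), Nprl3 (0.899) and Brd9 (0.878), and no gene reached 0.95 with it.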

How the data were processed

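RNA of laser-captured white matter was sequenced in 12 pools, 3 per group, and groups came from the sample labels. Per the labels and the study's methods, the authors amplified the RNA, checked reads with FastQC 0.11.4, mapped them to GRCm38 with TopHat2 2.0.10 and Bowtie 1.1.2, and deposited raw read counts per gene from featureCounts. The annotation release, strand setting and handling of shared reads are not given in the sources used here. Amplification can widen the spread of genes with few counts, and pooling hides the spread between mice.

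The counts were fitted in R 4.3.3 with edgeR 4.0.16 (TMM, filterByExpr, glmQLFit, glmQLFTest), with 1 coefficient per group over all 12 pools, and the Benjamini-Hochberg procedure was applied across 15866 genes, with calls at an adjusted p under 0.05. The SE of a log2 fold change was derived as its size divided by the square root of the F of edgeR's test. It is poorly set where the change is near 0, so none is given for the age difference in the injury effect on Adora2a. Log2 CPM used a prior count of 2. Levels relative to markers were compared by 2-sided exact permutation over pools. Exon lengths and positions came from GENCODE annotation of GRCm38, and 98% of gene identifiers had a symbol (Pnp had none and was not analysed). On simulated counts for 15546 genes, the test of injury in young mice recovered 62% of genes raised 2-fold and 92% of genes raised 4-fold. Of genes lowered to 0.5-fold it recovered 44%. The genes changed were few and left out those with low mean counts, so these rates do not describe receptors with few counts.

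The 10 receptors and the gene lists were chosen with earlier results of these data known, so no p was adjusted over them alone. The genes named were all 10 receptors, any gene of 5 pathway lists, including in each the called genes with the highest and lowest change by injury in young mice, and the 3 genes with the highest Pearson's r per tested receptor, except that 1 gene of a pathway list and 1 of the genes chosen by r are not reported here. Alternatives were other scalings and filters, DESeq2 1.42.0, the replicate number as a block, only the pools compared and each pool left out.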

Additional observations from a re-analysis of the deposited data

How the results depend on the processing

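The counts of receptors raised by injury, 8 at each age, were 8 under 4 other scalings, 2 other filters, DESeq2, the replicate block and only the pools compared. With each pool left out the count was 8 in young and 8 to 9 in middle-aged mice, where Sucnr1 was added without middle-aged naive pool 2 (adjusted p = 0.0162). For age in naive tissue and for the difference of injury effects the count stayed 0 under all alternatives run. For age in the lesion it was 1 instead of 0 when only the injured pools were fitted, through Gpr65, with a log2 fold change of 0.43 (adjusted p = 0.0416 by edgeR), and 0 under the others. In that fit 818 of 15048 genes (5.44%) were called, against 182 of 15866 (1.15%) with all pools. The cause was not tested.

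Changes of sign occurred in values that did not pass the test or rested on zeros. With pools left out in turn, the age effect on Gpr84 in the lesion ran from -0.425 to 0.0115. The difference of injury effects ran from -1.44 to 0.20 for Gpr65, from -0.0813 to 0.262 for P2rx4, from -0.103 to 0.238 for P2rx7 and from -0.246 to 0.407 for Adora2a. With library totals in place of scaling factors it was -0.0338 for P2rx4, -0.0372 for P2rx7 and -0.0762 for Adora2a, and with the replicate block -0.00449 for Adora2a. Library totals moved the median of all genes to 0.20 for injury in young mice and to -0.13 for the difference of effects. Relative to pan-myeloid markers, Gpr132 was at 0.75 in young mice with a prior count of 0.5, and in middle-aged mice at -0.26 to 0.43 with pools left out.

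Pools with the same replicate number deviated from their group means with r of -0.113 to 0.153 over pairs. Pairs with different numbers had r of -0.174 to 0.172. With 3 pools a group this cannot tell whether the numbers paired the samples. The replicate block changed no call of a receptor. Depth limits Sucnr1, Adora2a and the naive values of Gpr84, Gpr65 and Gpr132, which rest on a few counts.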
